A study of Mus musculus with 22 samples.

Results

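Chromatin accessibility was followed at 10 mouse genes that store fat in droplets or switch that storage on: Pparg, Cd36, Mogat1, Plin2, Plin4, Plin5, Cidec, Fitm1, G0s2 and Hilpda. Every deposited ATAC-seq peak that carries one of these gene names and lies within 50 kb of the gene's annotated start was taken. This gave 74 of the 68827 peaks in the table, and 10 of its 15686 genes. Pparg and Plin2 had 14 peaks each, Cd36 had 9, Cidec, G0s2 and Plin4 had 7 each, Hilpda had 6, Mogat1 5, Plin5 3 and Fitm1 2. The genes were chosen because several of them were more accessible in mild FPC livers than in FPC controls and less accessible again in advanced FPC livers. Their values in FPC livers are therefore given as a description without a test, and tests of these genes are given for the CDAHFD livers. Only 3 peaks of these genes lay outside the 50 kb limit, at 57.3 kb for Mogat1 and at 58.4 and 58.6 kb for Pparg. The outermost Pparg peaks inside it, 47759 and 48335 bp behind a start, had log2 differences of 1.18 and 0.80 (0.77 and 0.31 under cyclic loess scaling) in advanced CDAHFD livers against controls, and the 2 outside it had 1.40 and 1.14.

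The nuclei came from livers of male HEP-INTACT mice, in which hepatocyte nuclei carry a tag so that they can be pulled down with antibody-coated beads. What drives the tag, and how old the mice were, the labels do not say. For 20 weeks the mice ate a diet with added fructose, palmitate and cholesterol (FPC) or, as controls, a low fat diet. For 7 weeks other mice ate a CDAHFD (choline-deficient, amino acid-defined and high in fat) or the low fat diet. Livers with fat and inflammation were called mild NASH by histology, and those that also had clear fibrosis advanced NASH. There were 4 control, 4 mild and 3 advanced mice for each diet, 22 libraries in all, each from a mouse with its own number. Mild and advanced mice of 1 diet ate it equally long, so stage reflects histology and not time.

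Library totals were 3785066 to 6039071 counts in peaks in FPC controls, 5018142 to 5964888 in mild and 5971488 to 7135524 in advanced FPC livers, and 5952280 to 8384986, 6147894 to 9328963 and 6076213 to 9236873 in CDAHFD control, mild and advanced livers. All 10 hepatocyte markers had peaks, and their summed level was 2446 to 2889, 2099 to 2703 and 1831 to 2370 CPM in FPC control, mild and advanced livers and 2432 to 2881, 2155 to 2424 and 2093 to 2354 CPM in CDAHFD ones. The ranges of advanced FPC livers and of both CDAHFD stages lay below those of their controls, and that of mild FPC livers overlapped. Only 2 of 10 stellate, 4 of 10 macrophage and 1 of 8 lymphocyte markers had peaks. The stellate sum was 26.66 to 43.66, 24.57 to 39.11 and 47.27 to 65.58 CPM in FPC control, mild and advanced livers. In CDAHFD ones it was 37.18 to 49.95, 38.93 to 46.25 and 45.03 to 57.98 CPM. In the same order the macrophage sum was 58.55 to 70.77, 51.91 to 57.67 and 49.18 to 49.49 CPM in FPC livers. It was 62.9 to 72.97, 55.22 to 59.17 and 50.11 to 55.17 CPM in CDAHFD livers. Of 8 endothelial markers 6 had peaks. Their summed level was 153.5 to 175.4, 120.8 to 157.4 and 137.9 to 147.1 CPM in FPC control, mild and advanced livers. In the CDAHFD ones it was 175.7 to 215.9, 143 to 160.1 and 136.5 to 167.1 CPM. Of 8 adipocyte markers 7 had peaks, Fabp4 had none, and their summed level was 302 to 361, 340 to 399 and 280.2 to 306 CPM (counts per scaled library total, the usual depth-corrected unit) in FPC control, mild and advanced livers. In CDAHFD control, mild and advanced livers the adipocyte level was 294.4 to 356.7, 307.7 to 346.1 and 263.5 to 304.6 CPM. The summed level of 7 bile duct cell markers moved with stage, being 218.6 to 247, 271.2 to 305.7 and 404.8 to 502.6 CPM in FPC control, mild and advanced livers, and 225 to 277, 277 to 302 and 364 to 381 CPM in the CDAHFD ones. The share of counts in peaks within 1 kb of a start also moved with stage, from 40.6 to 42.1% in FPC controls, 42.5 to 44.4% in mild and 45.8 to 46.8% in advanced FPC livers. In CDAHFD control, mild and advanced livers it was 40.55 to 41.66%, 42.46 to 44.61% and 43.85 to 46.19%. The part of these in the results below was not tested. In a pool of nuclei, more nuclei open at a site and a wider opening in each nucleus cannot be told apart.

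A lipid droplet is a core of neutral fat inside a single layer of phospholipid, and proteins on that layer decide how fast fat is put in or taken out. PPARG is a nuclear receptor that binds DNA together with RXR and switches on storage genes. It is the master regulator of fat cells and is scarce in healthy liver but increases in fatty liver. Its gene has separate promoters: an early one for the PPARG1 protein and one far downstream for PPARG2, the longer form that fat cells make. Cd36 takes up fatty acids, Mogat1 joins them to monoacylglycerol, perilipins (Plin2, Plin4, Plin5) coat the droplet, Cidec fuses droplets, Fitm1 helps them form, and G0s2 and Hilpda inhibit the lipase ATGL.

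The promoters that the results turn on are shown here, because the 2 Pparg starts gave different calls in CDAHFD livers, both Cidec starts and that of Plin4 were called higher there (the upstream Cidec start not under cyclic loess scaling), and those of Plin2 and Mogat1 were called lower. Each line holds the 250 bases before an annotated start in RefSeq (GRCm38.p6, the assembly also called mm10), 5′ to 3′ on the gene's strand. Capitals mark bases that lie inside a deposited peak.
Pparg, early start, chr6:115360894-115361143, plus strand: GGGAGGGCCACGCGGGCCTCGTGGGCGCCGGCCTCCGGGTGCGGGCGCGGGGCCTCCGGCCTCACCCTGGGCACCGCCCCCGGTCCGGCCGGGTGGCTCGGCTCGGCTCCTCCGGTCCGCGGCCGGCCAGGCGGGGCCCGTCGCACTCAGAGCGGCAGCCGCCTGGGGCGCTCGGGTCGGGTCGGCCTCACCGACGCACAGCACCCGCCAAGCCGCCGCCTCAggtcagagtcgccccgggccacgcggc
Pparg, later start, chr6:115421816-115422065, plus strand: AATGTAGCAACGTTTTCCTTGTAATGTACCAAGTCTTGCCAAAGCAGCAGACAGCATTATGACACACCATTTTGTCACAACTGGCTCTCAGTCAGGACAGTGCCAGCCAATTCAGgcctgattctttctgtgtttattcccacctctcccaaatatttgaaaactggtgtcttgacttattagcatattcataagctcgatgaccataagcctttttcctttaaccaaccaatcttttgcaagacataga
Cidec, upstream start, chr6:113435761-113436010, minus strand: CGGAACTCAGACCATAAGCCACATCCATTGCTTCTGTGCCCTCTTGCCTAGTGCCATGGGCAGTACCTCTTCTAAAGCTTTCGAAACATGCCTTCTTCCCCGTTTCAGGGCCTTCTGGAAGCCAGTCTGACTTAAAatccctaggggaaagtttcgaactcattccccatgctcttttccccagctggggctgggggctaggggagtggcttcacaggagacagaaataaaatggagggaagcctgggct
Cidec, downstream start, chr6:113434765-113435014, minus strand: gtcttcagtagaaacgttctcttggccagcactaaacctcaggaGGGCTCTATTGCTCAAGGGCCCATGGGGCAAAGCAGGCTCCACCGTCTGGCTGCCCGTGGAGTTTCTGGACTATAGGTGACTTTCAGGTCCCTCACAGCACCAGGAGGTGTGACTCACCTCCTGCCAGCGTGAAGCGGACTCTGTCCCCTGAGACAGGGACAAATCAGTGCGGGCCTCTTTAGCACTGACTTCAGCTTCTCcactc
Plin4, chr17:56109783-56110032, minus strand: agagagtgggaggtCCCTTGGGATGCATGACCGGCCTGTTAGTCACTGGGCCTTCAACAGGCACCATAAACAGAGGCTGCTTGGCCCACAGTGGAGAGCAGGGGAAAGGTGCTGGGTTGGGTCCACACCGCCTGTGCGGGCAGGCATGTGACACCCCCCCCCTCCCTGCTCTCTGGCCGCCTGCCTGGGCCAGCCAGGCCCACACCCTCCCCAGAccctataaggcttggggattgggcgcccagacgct
Plin2, chr4:86670060-86670309, minus strand: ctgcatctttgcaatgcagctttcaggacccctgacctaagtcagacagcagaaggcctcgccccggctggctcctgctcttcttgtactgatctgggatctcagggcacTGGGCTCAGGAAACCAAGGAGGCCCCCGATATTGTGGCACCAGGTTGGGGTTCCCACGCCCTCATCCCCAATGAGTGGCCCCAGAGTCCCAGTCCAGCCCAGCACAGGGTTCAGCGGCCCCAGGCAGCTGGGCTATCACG
Mogat1, chr1:78510810-78511059, plus strand: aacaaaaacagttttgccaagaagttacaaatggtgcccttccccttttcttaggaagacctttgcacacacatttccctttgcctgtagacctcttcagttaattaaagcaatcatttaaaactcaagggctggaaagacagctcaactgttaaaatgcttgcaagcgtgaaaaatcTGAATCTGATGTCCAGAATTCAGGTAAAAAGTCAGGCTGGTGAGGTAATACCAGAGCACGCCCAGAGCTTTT

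Letters of known binding motifs were looked up on both strands in these windows and in those of the other members, 15 windows of 10 genes in all. The DR1 motif, a repeat that PPAR and RXR bind as a pair, was in none of the 15 and in 0.338% of the 32851 promoter windows of the mouse. The C/EBP motif TTGCNNAA was in 2 of the 15, against 9.56% of all windows: it stood at the later Pparg start, with first bases at -215 and -16, and at the downstream Cidec start, at -198. The AP-1 motif TGANTCA was in 3, against 6.75% of all windows, and 1 of them was the downstream Cidec start, at -96. The HIF motif ACGTGC, which hypoxia-inducible factors bind, was in 1 of the 15, a Hilpda window, against 4.92% of all windows. CCAAT was in 6 of the 15 and the GC box GGGCGG in 7, against 33.8% and 32.7% of all windows, and of the 2 Pparg windows shown the early one held a GC box and no CCAAT, the later one CCAAT and no GC box. TATAAA was in 1 of the 15 (12.4% of all windows) and the SREBP motif TCACNCCAC in none (1.05%). No match overlapped another, and a match in letters is not a measured binding site.

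Summed over its peaks, each gene's accessibility is given as CPM of all counts in peaks within 50 kb of a start, and it was in this sum that the FPC pattern lay. In mild FPC livers 7 of the 10 genes (Cd36, Cidec, Fitm1, G0s2, Plin4, Plin5 and Pparg) stood above the controls with no overlap between libraries and 1, Mogat1, stood below. Among all genes 19.1% stood above without overlap and 16.5% below. In advanced FPC livers 9 of the 10, all but Plin5, stood below mild livers without overlap, against 17.6% of all genes, and none stood above, against 18.9%. Set against controls, advanced FPC livers had 0 of the 10 above (31.1% of all genes) and 3 below, namely Hilpda, Plin2 and Mogat1 (27.5%). These counts restate the choice of the genes.

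**Figure D1:**
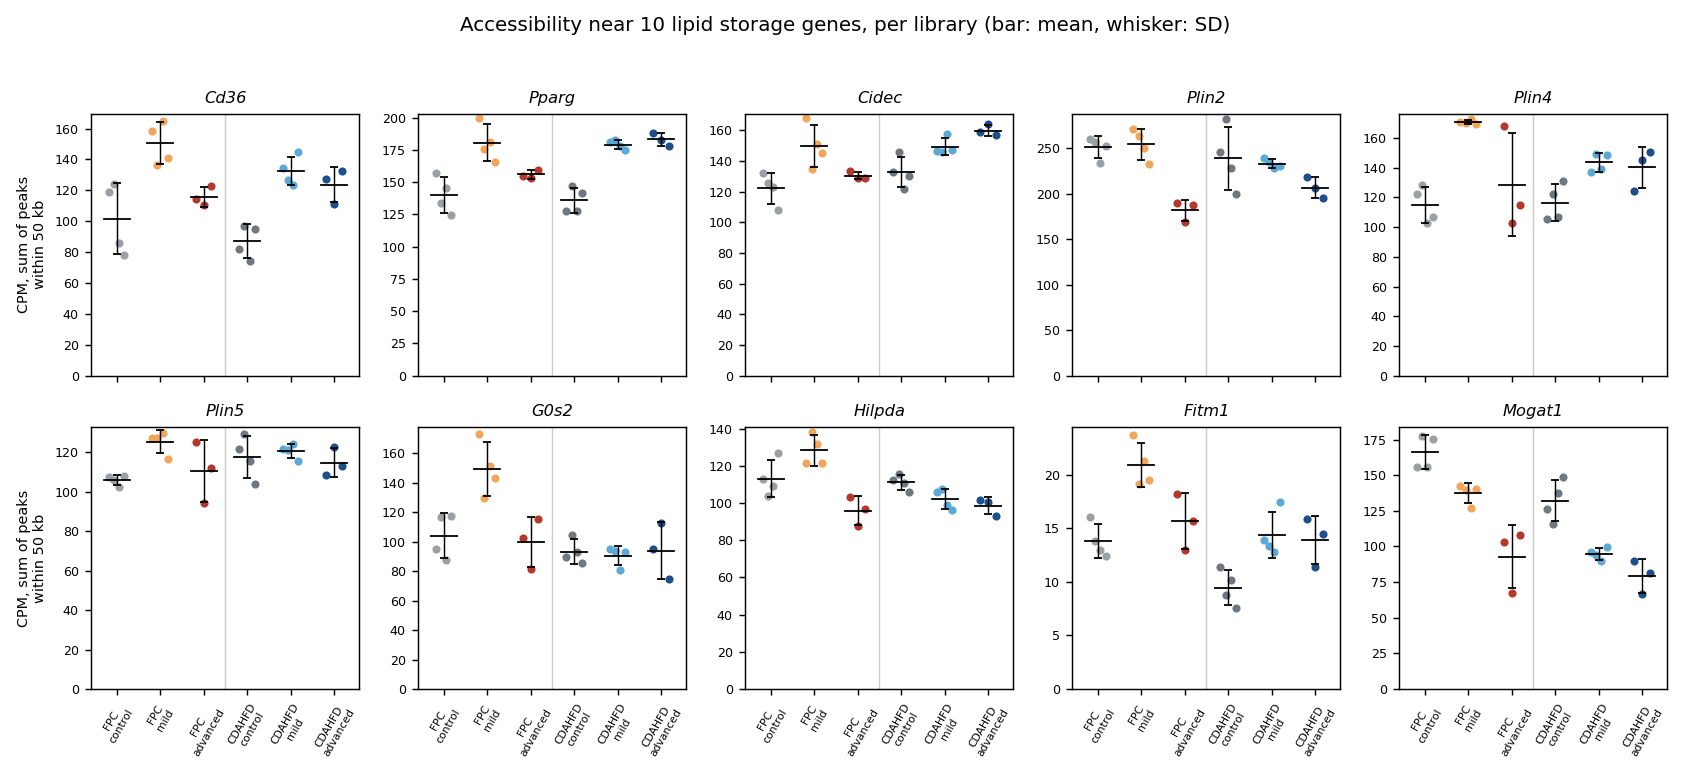
Summed accessibility of each gene in CPM (peaks within 50 kb of the start) in each library, by diet and stage from control to mild to advanced. Points are libraries, bars are means and whiskers are SD over 4 control, 4 mild and 3 advanced mice per diet. Most genes peak in mild FPC livers, while in CDAHFD livers Pparg, Cd36 and Cidec stay high in the advanced stage and Mogat1 is lowest there.

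In CDAHFD livers, whose values were not part of the rule, 5 genes were more accessible in the advanced stage than in controls and 3 were less so. Higher were Pparg, Cd36, Cidec, Fitm1 and Plin4, and lower were Mogat1, Plin2 and Hilpda (edgeR quasi-likelihood test with Benjamini-Hochberg adjustment over all 15686 genes, called at an adjusted p under 0.05). Of all genes 30.2% were called higher and 28% lower in this comparison. In mild CDAHFD livers against controls the same 5 genes were called higher, against 23.9% of all genes, and 1, Mogat1, was called lower, against 21%. Between advanced and mild CDAHFD livers none of the 10 sums over 50 kb was called in either direction by edgeR. Of all genes 9.63% were called higher there and 7.76% lower. With peaks limited to 1 kb, Cidec was called higher (0.53, adjusted p = 0.000757). Plin2 (-0.36, 0.0191) and Mogat1 (-0.72, 0.000127) were called lower at 1 kb, and Mogat1 also at 10 kb (-0.69, 0.000216). At 50 kb unadjusted p-values in that comparison fell under 0.05 for 2 genes, Plin2 (0.0391) and Mogat1 (0.0426), both lower in advanced livers, and DESeq2 called 0 genes as well. The median log2 difference of the 10 genes was 0.14 in advanced and 0.10 in mild CDAHFD livers against controls, beside 0.0081 and 0.0058 over all genes. Both CDAHFD comparisons share the same 4 control mice.

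**Figure D2:**
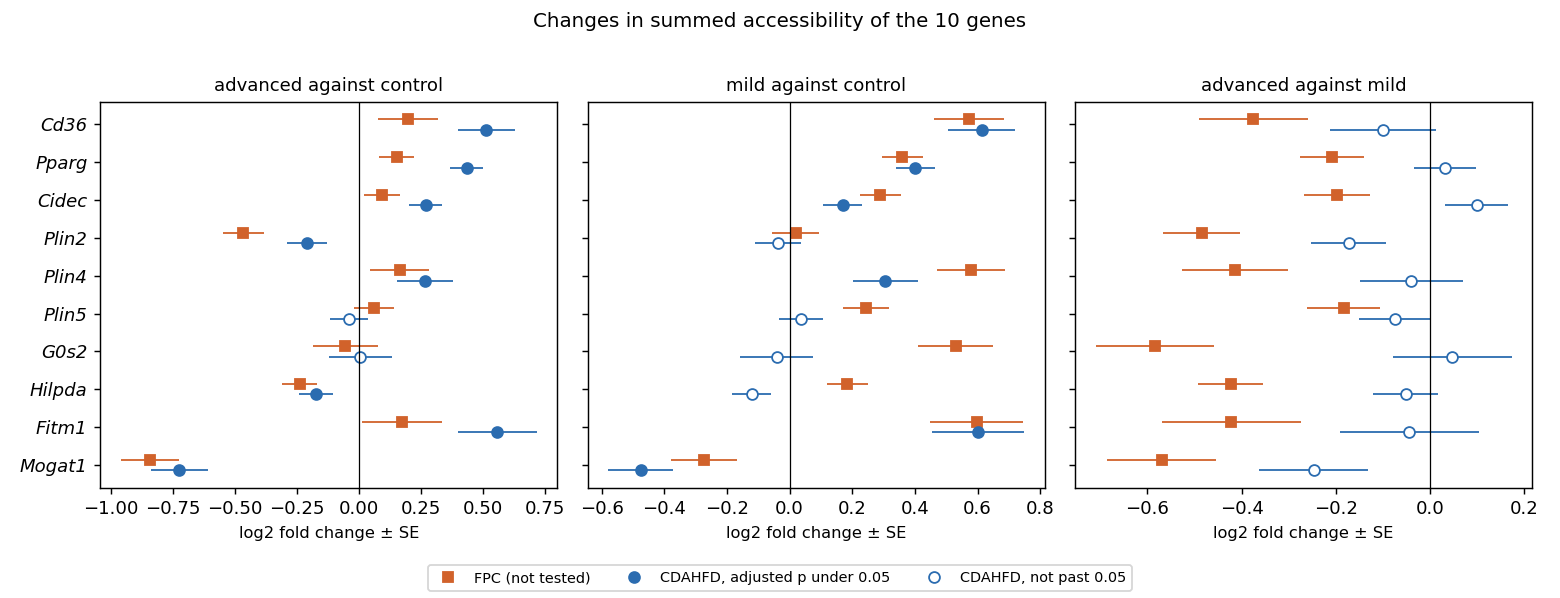
Log2 fold change of the summed accessibility of each gene with its standard error, for advanced against control, mild against control and advanced against mild livers. Squares are FPC livers, which were used to choose the genes and are not tested, and circles are CDAHFD livers, filled where the adjusted p is under 0.05. In advanced against mild livers every FPC value is below 0, and no CDAHFD circle is filled.

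Pparg itself was among the genes that opened most firmly on the CDAHFD. Its sum was 127, 147, 127 and 141 CPM in the 4 controls, 181, 182, 178 and 175 in mild and 188, 183 and 178 in advanced livers. All 7 NASH libraries lay above all 4 controls, and the 2 NASH stages overlapped. The log2 change was 0.43 ± 0.067 (SE) in advanced livers (adjusted p = 6.26e-06) and 0.40 ± 0.063 in mild livers (1.57e-05). With peaks limited to 10 kb the change was 0.26 at both stages and missed the threshold, at adjusted p = 0.0548 in advanced and 0.0502 in mild livers. On the FPC diet the sum was 157, 134, 145 and 124 CPM in controls, 199, 176, 181 and 165 in mild and 155, 153 and 159.7 in advanced livers, so mild livers stood alone at the top. At 50 kb the FPC log2 differences from controls were 0.36 in mild and 0.15 in advanced livers. They were 0.12 and -0.19 at 10 kb and -0.019 and -0.23 at 1 kb.

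The 2 Pparg promoters gave different calls, and the difference between them was not tested. At the early start, 2 overlapping peaks that share 38 bp rose in CDAHFD livers. The upstream one (chr6:115360753-115360953, mm10) held 1.41, 2.84, 2.61 and 3.40 CPM of all peak counts in controls, 6.47, 6.53, 7.12 and 6.07 in mild and 10.9, 11.5 and 6.97 in advanced livers. Its log2 change was 1.94 ± 0.23 in advanced livers (adjusted p over all 68827 peaks = 7.38e-08) and 1.35 ± 0.23 in mild livers (2.95e-05). It was also higher in advanced than in mild livers, by 0.59 ± 0.20 (adjusted p = 0.0468), a call that was lost under cyclic loess scaling (0.0667), with CDAHFD libraries alone (0.0706), after thinning (0.0675) and without advanced replicate 1 or 2 or any mild library (0.0504 to 0.202). The second peak (chr6:115360916-115361116) changed by 1.44 ± 0.16 in advanced and 1.14 ± 0.16 in mild livers against controls (adjusted p = 3.25e-08 and 1.7e-06).

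At the later start, in the window with 2 C/EBP matches, the peak 236 bp upstream (chr6:115421730-115421930) held 9.89, 24.5, 10.6 and 20.4 CPM in CDAHFD controls, 17.6, 15.9, 24.1 and 17.2 in mild and 14.96, 17.4 and 16.9 in advanced livers. The controls alone spanned the whole range of the NASH libraries, and the log2 difference of advanced livers from controls was 0.022 ± 0.27 (adjusted p = 0.953). FPC values at this peak were 35.9, 21.5, 31.6 and 20.7 CPM in controls, 35.95, 13.6, 21.3 and 17.3 in mild and 16.7, 14.96 and 17.3 in advanced livers, the advanced ones being below every control. A further peak, 2875 bp before the later start, fell (log2 change -0.79 ± 0.17, adjusted p = 0.000372) in advanced CDAHFD livers. The 944 bp peak differed by 0.091 ± 0.12 (0.549).

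Inside the gene the strongest Pparg peak, which overlaps an exon 41117 bp behind the later start (chr6:115463083-115463283), had 17.8, 16.8, 15.9 and 18 CPM in CDAHFD controls, 26.4, 26.1, 27.8 and 28.1 in mild and 29.7, 32.7 and 30.6 in advanced livers. It rose by 0.86 ± 0.098 and 0.67 ± 0.093 on the log2 scale in advanced and mild livers (adjusted p = 3.83e-08 and 2.17e-06). The libraries of FPC livers ran 12.6, 14.1, 15.6 and 14.2, 22.3, 26.9, 26.5 and 21 and 24.9, 31.1 and 28.6 CPM from control to mild to advanced, with no overlap between controls and either stage. Here the advanced FPC livers did not drop back below the mild ones, unlike the gene's sum. In all, 9 of the 14 Pparg peaks were called higher in advanced CDAHFD livers and 1 lower, where 26.7% of all peaks were called higher and 28.8% lower.

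**Figure D3:**
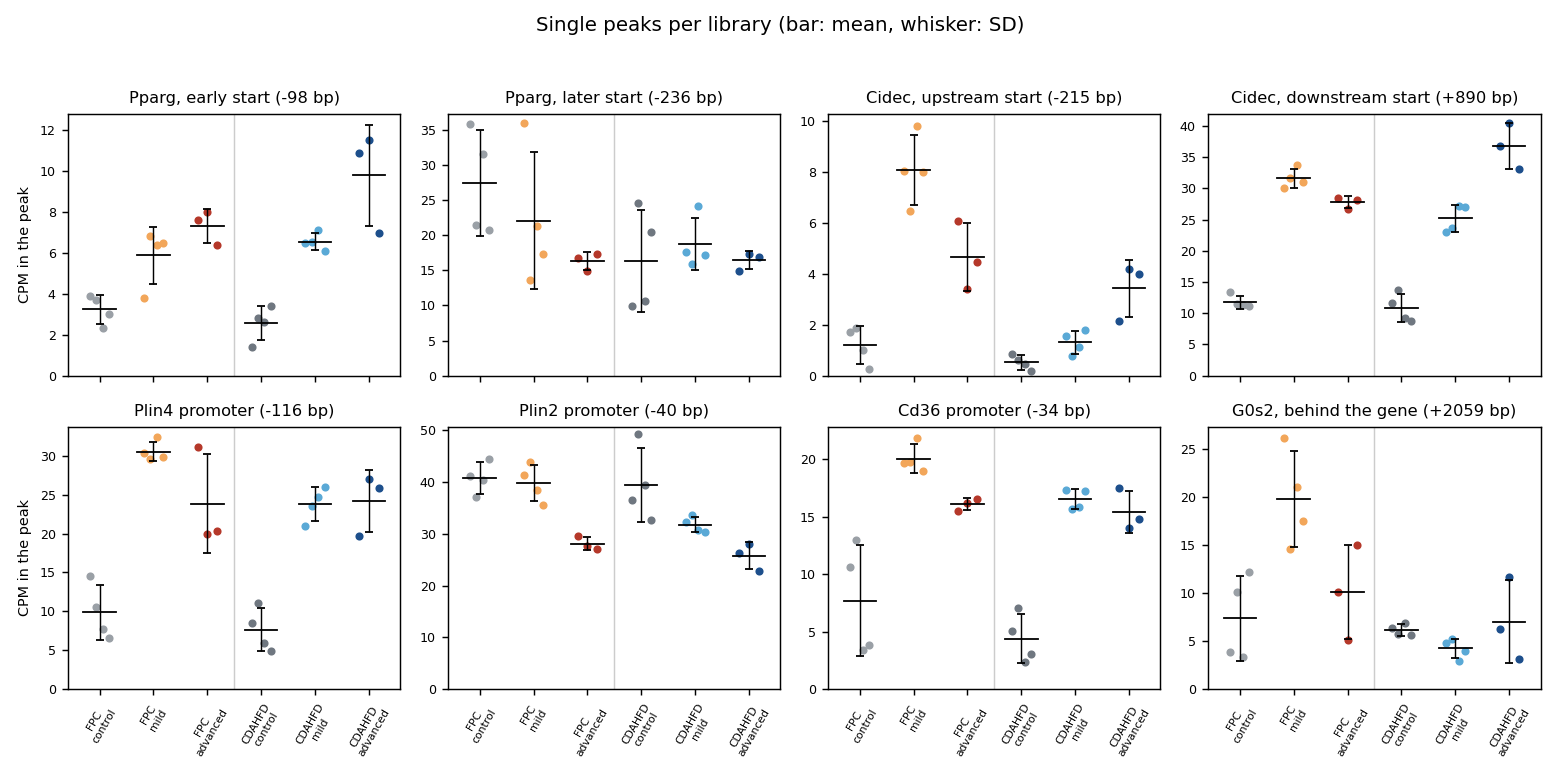
CPM (of all counts in peaks) of 8 single peaks in each library, by diet and stage from control to mild to advanced; bars are means and whiskers SD over 4 control, 4 mild and 3 advanced mice per diet. The early Pparg start, both Cidec starts, Plin4 and Cd36 have higher means in NASH livers of both diets, the later Pparg start does not in FPC livers, Plin2 is lowest in advanced livers, and the peak behind G0s2 is high in mild FPC livers.

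Cd36 brings fatty acids across the cell membrane, and its gene is a known PPARG target. Its sum was 82.3, 96.8, 74.2 and 95.2 CPM in CDAHFD controls, 135, 127, 124 and 145 in mild and 127, 111 and 133 in advanced livers, with both NASH stages above every control. The log2 change was 0.51 ± 0.12 in advanced (adjusted p = 0.000534) and 0.61 ± 0.11 in mild livers (6.3e-05). Its largest log2 changes were at 2 sites, -34 and 7986 bp from their nearest annotated starts. The promoter peak at -34 (chr5:17849726-17849926) had 5.08, 7.03, 2.38 and 3.06 CPM in controls, 17.3, 15.7, 15.9 and 17.3 in mild and 17.5, 14.02 and 14.8 in advanced CDAHFD livers, a log2 change of 1.84 ± 0.28 in advanced livers (adjusted p = 3.69e-06). The intron peak at 7986 changed by 2.24 ± 0.27 (1.17e-07). The strongest Cd36 peak, 13506 bp upstream of a start, differed by 0.27 ± 0.13 (0.0759).

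In FPC livers the Cd36 sum was 119, 124, 85.8 and 78.2 CPM in controls, 158, 137, 165 and 141 in mild and 115, 110.2 and 123 in advanced livers, and the mild libraries stood above both other groups. The promoter peak held 10.7, 12.99, 3.36 and 3.79 CPM in controls, 19.7, 19.7, 21.9 and 19 in mild and 15.5, 16.2 and 16.6 in advanced livers. The 4 controls split into a pair above 10 and a pair below 4 CPM, and the advanced libraries lay between the controls and the mild ones without touching either. The same 2 control mice were the higher pair at the 7986 bp peak, with 5.33, 5.30, 1.68 and 1.52 CPM in the same mouse order.

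Mogat1, which makes diacylglycerol from monoacylglycerol and is also known as a PPARG target in mouse liver, moved the other way from Pparg and Cd36. Its sum was 126, 116, 137 and 149 CPM in CDAHFD controls, 96.4, 93.8, 89.8 and 99.3 in mild and 90.1, 66.8 and 81.6 in advanced livers. No mild or advanced library reached the lowest control. The sum fell, with log2 changes of -0.72 ± 0.11 in advanced (adjusted p = 8.76e-06) and -0.47 ± 0.10 in mild livers (0.000636). The Mogat1 sum was also below controls in both FPC stages, with 156, 178, 156 and 176 CPM in controls, 142, 139.8, 127 and 140.2 in mild and 103, 67.6 and 108 in advanced livers. Its log2 difference in mild FPC livers was -0.27 at 50 kb, but 0.0645 at 10 kb and 0.033 at 1 kb. The promoter peak had means of 30.1, 32.6 and 19.9 CPM in FPC control, mild and advanced livers.

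In advanced CDAHFD livers both the promoter peak and the strongest gene body peak of Mogat1 closed. The promoter peak (chr1:78510988-78511188) had 27.1, 32.8, 28.8 and 29.03 CPM in CDAHFD controls, 27.2, 22.5, 23.5 and 27.2 in mild and 14.3, 17.02 and 17.1 in advanced livers. It fell (log2 change -0.88 ± 0.12, adjusted p = 3.39e-07) in advanced livers against controls, and it fell against mild livers too (log2 change -0.65 ± 0.12, adjusted p = 0.000344), while mild livers differed from controls by -0.22 ± 0.099 (0.0719). The gene's strongest peak, in intron 6 (chr1:78537797-78537997), had 37.6, 33.5, 42.1 and 42.8 CPM in controls, 24.5, 24.8, 23.9 and 24.3 in mild and 25.3, 14.02 and 19.6 in advanced livers. There mild livers were already lower than controls, at -0.68 ± 0.12 (4.85e-05), and advanced livers differed from mild ones by -0.27 ± 0.14 (0.184). Whether the 2 peaks differ in their change was not tested.

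Cidec, also called FSP27, sits where droplets touch and moves fat from the smaller into the larger. Its sum was 133, 146, 122 and 130.5 CPM in CDAHFD controls, 147, 146, 158 and 147 in mild and 159, 164 and 157 in advanced livers. Advanced livers lay above all controls and rose by 0.27 ± 0.068 on the log2 scale (adjusted p = 0.00155). In mild livers the change was 0.17 ± 0.063 (0.0317), which overlapped the controls and missed the threshold in 10 of the 11 fits that left out 1 CDAHFD library. The peak just before the downstream start (chr6:113434770-113434970), which holds the AP-1 and C/EBP letters and lies in intron 1 of the longer transcript, had 11.6, 13.8, 9.27 and 8.83 CPM in controls, 23.04, 23.6, 27.2 and 27.01 in mild and 36.8, 40.4 and 33.1 in advanced CDAHFD livers. The 3 groups did not overlap at all, and the log2 change was 1.76 ± 0.11 in advanced against control (adjusted p = 1.31e-12), 1.22 ± 0.11 in mild against control (2.56e-09) and 0.54 ± 0.10 in advanced against mild livers (0.000633).

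On the FPC diet the Cidec sum was 132, 126, 123 and 108 CPM in controls, 168, 135, 151 and 145 in mild and 133, 129 and 129 in advanced livers. The mild libraries stood above both other groups, and the advanced ones overlapped the controls. At the downstream start FPC livers held 13.3, 11.4, 11.3 and 11.1 CPM as controls, 30.1, 31.6, 33.7 and 30.99 when mild and 28.5, 26.6 and 28.2 when advanced, so there the advanced libraries stood well clear of the controls and just under the mild ones.

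The peak at the upstream Cidec start (chr6:113435875-113436075) was small, with 0.847, 0.598, 0.475 and 0.17 CPM in CDAHFD controls, 1.55, 0.784, 1.13 and 1.78 in mild and 2.14, 4.17 and 3.98 in advanced livers. Its log2 change was 2.60 ± 0.42 in advanced livers (8.53e-06) and 1.30 ± 0.47 in mild livers (0.0271). Neither call held under cyclic loess scaling, which gave 0.20 in advanced (adjusted p = 0.761) and -0.014 in mild livers (0.988), and the mild one was also lost after thinning (0.108) and without mild replicate 1 or 4 or control replicate 3 or 4 (0.0598 to 0.1). In FPC livers the same peak held 1.70, 1.86, 1.01 and 0.253 CPM in controls, 8.03, 6.46, 9.81 and 7.999 in mild and 6.07, 3.42 and 4.46 in advanced livers, and the 3 groups did not overlap. An intron peak 5389 bp behind the start fell (log2 change -1.31 ± 0.24, adjusted p = 4.87e-05) in advanced CDAHFD livers. The strongest Cidec peak, at 7529 bp, differed by -0.18 ± 0.088 (0.0819).

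The perilipins did not move together. Plin4, which coats new droplets in fat cells, had sums of 105, 123, 107 and 131 CPM in CDAHFD controls, 137, 149, 139 and 149 in mild and 125, 146 and 150.4 in advanced livers. Its change was 0.31 ± 0.10 in mild (0.0185) and 0.27 ± 0.11 in advanced livers, where it passed the threshold narrowly (adjusted p = 0.0437). That advanced call was lost with RLE scaling (0.0546), with DESeq2 (0.0578), when counts ending in 0.5 were rounded down (0.0645) and without any 1 of 9 CDAHFD libraries, and the mild call without mild replicate 2 or 4 or control replicate 1 or 3 (0.0604 to 0.0695). The promoter peak (chr17:56109818-56110018) was clearer, with 8.47, 11.1, 5.94 and 4.92 CPM in controls, 20.97, 23.5, 24.8 and 25.96 in mild and 19.7, 27.04 and 25.9 in advanced CDAHFD livers and a change of 1.66 ± 0.21 in advanced livers (1.51e-07). A weaker peak 8505 bp behind the start changed by 2.16 ± 0.28 (2.26e-07), and by 1.08 under cyclic loess scaling (0.00191).

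In FPC livers the Plin4 promoter peak held 14.5, 10.6, 7.73 and 6.58 CPM in controls, 30.3, 29.6, 32.4 and 29.8 in mild and 31.2, 19.9 and 20.4 in advanced livers, so 1 advanced library matched the mild ones. That library also led the gene's sum, with 168, 103 and 115 CPM in the 3 advanced livers, against 122, 128, 103 and 107 CPM in controls. Without it the log2 difference of advanced FPC livers from controls was -0.071, against 0.16 with it. The peak 1429 bp before Plin4 lies at the end of Plin5, its neighbour on chromosome 17, and was assigned by the authors to Plin4, so its counts bear on both genes. The Plin4 peaks at 8505 and 8761 bp are annotated to the end of a transcript other than the one with the nearest start. That at 10378 bp is annotated to an intron of a further transcript. The annotation used here does not name the genes of these transcripts.

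Plin2, the general droplet coat of hepatocytes, had the largest sum of the 10 genes in every group and fell in advanced livers. Its sums were 246, 283, 228 and 199.9 CPM in CDAHFD controls, 239, 235, 228 and 231 in mild and 218, 207 and 195 in advanced livers. The change of -0.21 ± 0.079 in advanced livers (adjusted p = 0.0271) left 2 of the 3 advanced libraries within the range of the controls, and the call was lost with cyclic loess scaling (0.103), with library totals of all peaks (0.0689, a setting chosen after seeing the data) and without any 1 of 3 CDAHFD libraries. The promoter peak (chr4:86669999-86670199) had 36.4, 49.4, 39.4 and 32.6 CPM in controls, 32.4, 33.7, 30.8 and 30.4 in mild and 26.3, 28.04 and 22.9 in advanced CDAHFD livers. It fell (log2 change -0.62 ± 0.10, adjusted p = 1.5e-05) in advanced livers, and it fell in mild livers too (log2 change -0.32 ± 0.093, adjusted p = 0.0082, but 0.0569 after thinning). On the FPC diet the Plin2 sum was 261, 257, 233 and 253 CPM in controls, 271, 264, 251 and 232 in mild and 189.6, 168 and 187 in advanced livers, the advanced ones being below all others. Likewise only the advanced stage was lower at the promoter peak, with 41.2, 37.1, 40.3 and 44.5 CPM in controls, 41.4, 43.8, 38.5 and 35.7 in mild and 29.5, 27.6 and 27.1 in advanced livers. A second peak, 1038 bp upstream, fell (log2 change -0.47 ± 0.086, adjusted p = 4.59e-05) in advanced CDAHFD livers.

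One weak peak upstream of Plin2 went against the promoter and had the highest log2 change of the 74 peaks in advanced CDAHFD livers. It lies 16700 bp before the start (chr4:86686659-86686859) between genes and held 0.424, 0.897, 0.713 and 0.34 CPM in CDAHFD controls, 2.72, 4.31, 5.18 and 2.62 in mild and 11.97, 8.34 and 5.12 in advanced livers. The log2 change was 3.79 ± 0.37 in advanced against control (1.88e-09), 2.54 ± 0.40 in mild against control (1.02e-05) and 1.24 ± 0.27 in advanced against mild livers (0.00209). Cyclic loess scaling gave 1.21 (0.0237), 1.13 (0.0502) and 0.079 (0.896) for the same comparisons, and the difference between the stages also missed the threshold without advanced replicate 1 (0.88, 0.0544). FPC livers held 0.485, 0.795, 0.504 and 0.506 CPM as controls, 2.21, 2.87, 1.38 and 0.9998 when mild and 4.38, 2.99 and 3.82 when advanced, and these 3 groups did not overlap, whereas on the CDAHFD the highest mild library passed the lowest advanced one. This peak was chosen by its p. The authors' nearest-gene label is all that ties this site to Plin2.

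Plin5, which links droplets to mitochondria, had sums that passed no test. CDAHFD controls ran from 104 to 129 CPM, mild livers from 116 to 124 and advanced livers from 108 to 123, and the differences from controls were -0.039 ± 0.075 in advanced (0.677) and 0.036 ± 0.07 in mild livers (0.705). FPC livers held 108, 106, 102 and 108 CPM as controls, 127, 127, 129.9 and 117 when mild and 125, 94.2 and 112 when advanced. The advanced libraries ran from below every control to above every control, and 3 of the 4 mild libraries lay above all of them. Its 2 promoter peaks gave different calls: the one 76 bp before an upstream start rose by 0.34 ± 0.078 in advanced livers (0.000622), and the strongest one, 28 bp before the next start, differed by -0.13 ± 0.094 (0.238).

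**Figure D4:**
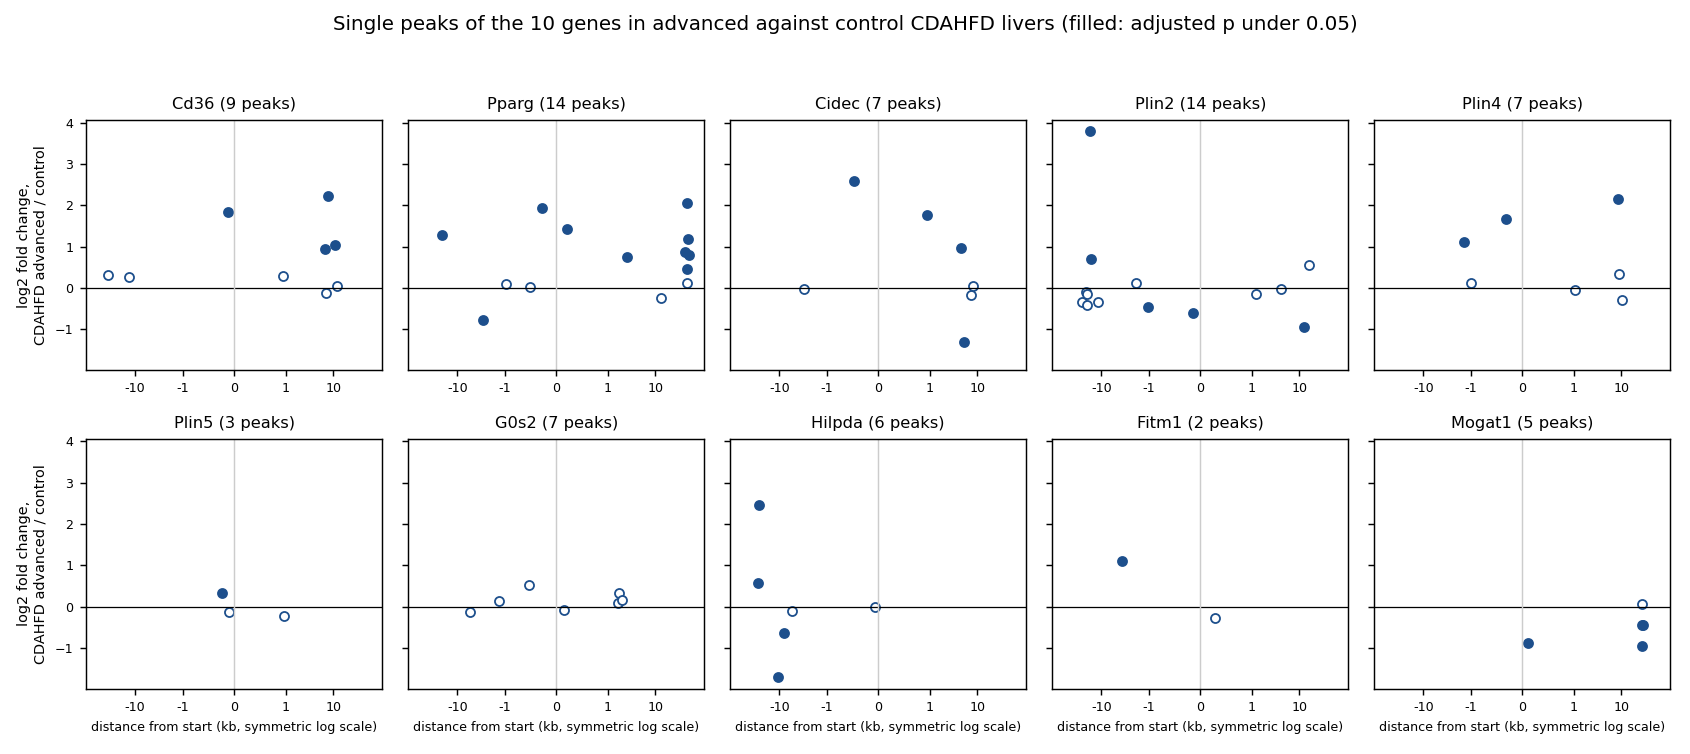
Log2 fold change of each of the 74 peaks in advanced against control CDAHFD livers, by distance from the annotated start on a symmetric log scale in kb, 1 panel per gene. Filled points passed an adjusted p of 0.05 over all 68827 peaks. Pparg, Cd36, Cidec and Plin4 hold promoter peaks above 1, Plin2 and Mogat1 hold promoter peaks below 0, and G0s2 has no filled point.

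Fitm1 encodes an endoplasmic reticulum protein that helps fat bud into droplets, known mainly from muscle. It had only 2 peaks and the lowest sums of the 10 genes. CDAHFD controls ran from 7.53 to 11.4 CPM, mild livers from 12.7 to 17.5 and advanced livers from 11.4 to 15.8. On the FPC diet it was 16.05, 13.8, 12.9 and 12.4 CPM in controls, 23.6, 19.1, 21.2 and 19.5 in mild and 18.2, 12.99 and 15.7 in advanced livers, with the mild libraries on top. In CDAHFD livers the sum rose by 0.56 ± 0.16 in advanced (0.004) and by 0.60 ± 0.15 in mild livers (0.0017). The advanced call was lost when libraries were thinned to the smallest (0.0597) and without 1 advanced library (0.0536). The upstream peak 3717 bp from the start carried it, at 1.09 ± 0.18 (8.21e-06), while the peak at the start differed by -0.27 ± 0.30 (0.455). With the start alone, within 1 kb, the gene's value in advanced livers turned to -0.40, and its call in mild livers was lost (0.218).

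Of the ATGL inhibitors, G0s2 stood high in mild FPC livers and had no called change on the CDAHFD. Its sums were 95.4, 117, 87.3 and 117 CPM in FPC controls, 173, 129.7, 152 and 144 in mild and 102, 81.6 and 116 in advanced livers, with every mild library above all others. On the CDAHFD they were 89.8, 105, 93.2 and 85.7 CPM in controls, 94.9, 93.8, 80.9 and 92.8 in mild and 94.8, 113 and 74.4 in advanced livers, and the differences from controls were 0.0055 ± 0.13 in advanced (0.976) and -0.042 ± 0.12 in mild livers (0.802). None of its 7 peaks was called in any CDAHFD comparison. All 7 peaks had higher means in mild FPC livers than in controls, which restates the choice of the gene. The log2 differences were 1.46, 1.20 and 1.48 in 3 peaks just behind this short gene, 1649, 1779 and 2059 bp from the start, the first 2 of which share 71 bp, and 0.21 and 0.30 in the peaks 5433 and 1349 bp upstream. Advanced FPC livers had lower means than mild ones at each of these peaks, and libraries of the 2 stages overlapped at the 2059 bp peak. The 2059 bp peak (chr1:193271029-193271229) held 3.88, 10.1, 3.36 and 12.1 CPM in FPC controls, 26.1, 14.5, 21 and 17.5 in mild and 10.1, 5.13 and 14.96 in advanced livers, and 6.36, 5.68, 6.89 and 5.602 CPM in CDAHFD controls, 4.79, 5.22, 2.91 and 3.98 in mild and 6.20, 11.7 and 3.13 in advanced livers. In FPC livers all 4 mild libraries were above the controls there, and 1 advanced library passed the lowest mild one. The promoter peak, with 23.7, 22.01, 22.5 and 27.1 CPM in FPC controls, 30.5, 25.1, 27.5 and 26.3 in mild and 25.96, 23.1 and 24.02 in advanced livers, overlapped between all stages.

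Hilpda, which hypoxia and fatty acids induce, was lower in the advanced stage of both diets. Its sums were 113, 116, 111 and 106 CPM in CDAHFD controls, 106, 108, 98.8 and 96.4 in mild and 102, 101 and 93.2 in advanced livers, a change of -0.17 ± 0.069 in advanced (0.0339) and -0.12 ± 0.063 in mild livers (0.123). The advanced call was lost with cyclic loess scaling (0.0538), with library totals of all peaks (0.111), with thinned libraries (0.061) and without either of 2 libraries. Peaks within 1 kb (-0.11, 0.247) and peaks at any distance (-0.15, 0.0642) did not keep it either. The mild value, in turn, was called at 10 kb (-0.19, 0.00849) and at 1 kb (-0.24, 0.0118). FPC livers held 113, 104, 109 and 127 CPM as controls, 121, 139, 132 and 122 when mild and 103, 87.7 and 96.9 when advanced. The promoter peak, with the HIF letters in its window, did not pass the test, at 0.0025 ± 0.093 (0.985). The changes were upstream and in both directions: the site 25708 bp before a start rose by 2.46 ± 0.27 (1.65e-08), and the sites at 10487 and 8100 bp fell, at -1.71 ± 0.26 and -0.64 ± 0.12 (3.63e-06 and 7.63e-05).

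Counted by peak, 25 of the 74 peaks were called higher and 10 lower in advanced CDAHFD livers against controls, beside 26.7% and 28.8% of all peaks. In mild CDAHFD livers 26 were called higher and 10 lower, beside 20.7% and 20% of all peaks. Between advanced and mild CDAHFD livers 5 were called higher and 6 lower, beside 9.28% and 7.26%. Of the 19 peaks within 1 kb of a start, 7 were higher and 2 lower in advanced livers against controls, and of all 20072 such peaks 31.5% were higher and 13.7% lower. Limited to peaks within 1 kb, the gene values in advanced CDAHFD livers lay farther from 0 for Cidec (1.70), Cd36 (0.97), Plin4 (0.85) and Plin2 (-0.74). In mild CDAHFD livers they were 1.17 for Cidec, 1.16 for Cd36 and 0.94 for Plin4, and nearer 0 for Mogat1 (-0.28). Of the 55 peaks farther out, 18 were higher and 8 lower, where 25.7% and 32.7% of all such peaks were.

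A list of other genes, chosen with earlier results known, of droplet coats, fat synthesis, fat breakdown, fatty acid uptake and storage regulation gave 62 measured genes of 64 listed. In advanced CDAHFD livers 14 of them were called higher and 21 lower (30.2% and 28% of all genes), and in mild CDAHFD livers 12 higher and 17 lower (23.9% and 21%). Between the stages 2 were called higher and 6 lower (9.63% and 7.76%). For FPC livers the counts were 15 higher and 20 lower in advanced against control (32.4% and 29% of all genes), 16 and 11 in mild against control (21.3% and 18.9%), and 5 and 22 in advanced against mild livers (15.6% and 15.9%). The last of these counts held 10 of the 16 regulators and 6 of the 14 uptake genes among the lower ones, and the median log2 difference of the list was -0.12, beside 0.012 over all genes.

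Within the list, synthesis and breakdown each held genes that rose and genes that fell. Gpat3, which adds the first fatty acid to glycerol phosphate, rose by 0.79 ± 0.058 in advanced CDAHFD livers (5.21e-11) and 0.53 ± 0.062 in advanced FPC livers (1.11e-07). Pnpla2, which encodes ATGL, the lipase that G0s2 and Hilpda block, rose by 0.63 ± 0.077 (1.9e-07) and 0.46 ± 0.081 (3.33e-05) in the same comparisons. Mgll, the lipase of the last step of fat breakdown, fell in them, at -0.60 ± 0.07 (adjusted p = 9.36e-08) and -0.64 ± 0.071 (5.6e-08). In advanced against mild FPC livers it fell (log2 change -0.63 ± 0.071, adjusted p = 5.41e-07). Lpin1, a phosphatidate phosphatase, fell (log2 change -0.58 ± 0.10, adjusted p = 6.61e-05) in mild CDAHFD livers, and Agpat2, an acyltransferase that makes phosphatidate, fell (log2 change -0.46 ± 0.075, adjusted p = 4.45e-05) in advanced against mild FPC livers. Dgat1 and Dgat2, which complete triglyceride, went apart in mild FPC livers, at 0.33 ± 0.067 (0.000456) and -0.23 ± 0.059 (0.00366), though the Dgat2 call was lost at 10 kb (-0.12, 0.13) and 1 kb (-0.090, 0.309). At peaks within 1 kb the advanced CDAHFD and FPC values were 1.71 and 1.29 for Gpat3 and 0.36 and 0.19 for Pnpla2, that of Mgll was -0.37 in CDAHFD livers, and that of Agpat2 was -0.22 in advanced against mild FPC livers, all still called.

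Among coat proteins, Ldah, a droplet-bound hydrolase, fell (log2 change -1.17 ± 0.093, adjusted p = 1.98e-10) in advanced CDAHFD livers and in advanced FPC livers (log2 change -0.90 ± 0.095, adjusted p = 2.61e-08). Hsd17b13, a droplet protein of hepatocytes, rose by 0.37 ± 0.068 in advanced CDAHFD livers (4.82e-05), though not at peaks within 1 kb. Tmem159, a partner of seipin in droplet formation, rose by 0.87 ± 0.13 in advanced FPC livers (4.75e-06). Plin1, the perilipin of fat cells, rose by 0.68 ± 0.15 in mild FPC livers (0.0012), and Fitm2, the relative of Fitm1 that most tissues express, by 0.49 ± 0.093 in mild CDAHFD livers (0.000172). Of uptake genes, the transporter Slc27a1 rose by 0.58 ± 0.082 and 0.59 ± 0.084 in advanced CDAHFD and FPC livers (1.48e-06 and 2.19e-06). Fabp2, a fatty acid binding protein best known from gut, fell in the same comparisons, at -0.69 ± 0.082 and -0.88 ± 0.087 (1.37e-07 and 9.07e-09), but neither call held at peaks within 1 kb (-0.27, 0.183 and -0.30, 0.203). The Slc27a1 values there were 0.38 and 0.32, both called. Slc27a5, the liver's bile acid and fatty acid ligase, fell (log2 change -0.45 ± 0.10, adjusted p = 0.00303) in advanced against mild CDAHFD livers, and Acsl1 fell (log2 change -0.19 ± 0.051, adjusted p = 0.00547) in mild FPC livers. The Acsl1 call was lost under cyclic loess scaling (-0.081, 0.146), at 1 kb (0.0511) and with peaks at any distance (0.068). Lpl, the lipase that frees fatty acids from lipoproteins, rose by 0.32 ± 0.083 in advanced against mild FPC livers (0.00452), by 1.11 within 1 kb (0.00426), but not with peaks at any distance (0.18, 0.0884).

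The list also held regulators around PPARG, chosen like the rest with earlier results known. Of 16, 2 were higher and 6 lower in advanced CDAHFD livers (30.2% and 28% of all genes). In mild CDAHFD livers 2 were higher and 4 lower (23.9% and 21%), and between the stages 0 and 3 (9.63% and 7.76%). FPC counts were 2 and 9 in advanced (32.4% and 29%) and 0 and 3 in mild livers against controls (21.3% and 18.9%). Advanced against mild FPC livers had 1 and 10 (15.6% and 15.9%). The share called lower was near that of all genes in mild CDAHFD (25%) and mild FPC livers (18.8%). It was 37.5% in advanced CDAHFD livers against controls and 18.8% between the CDAHFD stages. In advanced FPC livers it was 56.2% against controls and 62.5% against mild livers. Ppargc1a, a coactivator of PPARs that drives mitochondrial genes, fell (log2 change -0.72 ± 0.09, adjusted p = 3.13e-07) in advanced CDAHFD livers and in advanced FPC livers (log2 change -0.91 ± 0.093, adjusted p = 1.68e-08). Within 1 kb the CDAHFD call of Ppargc1a was lost (-0.33, 0.059). Rxrg, which encodes an RXR partner receptor, fell (log2 change -0.37 ± 0.083, adjusted p = 0.00274) in advanced against mild CDAHFD livers. Epas1, a hypoxia-inducible factor, fell (log2 change -0.22 ± 0.053, adjusted p = 0.00208) in mild FPC livers, a call lost at peaks within 1 kb (-0.16, 0.0668). Med1, a coactivator subunit, rose by 0.44 ± 0.089 in mild CDAHFD livers (0.000327).

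Over the 22 libraries, likeness was measured as Pearson's r of log2 CPM sums, as a description, since libraries of 1 group share diet, stage and scaling. The gene most like Cidec was Pparg (r = 0.858). Pparg was most like Ppt1 (0.911), Mrvi1 (0.904) and Mir686 (0.9), Mogat1 most like Pde8a (0.954), Elf5 (0.949) and Dct (0.947), and Plin2 most like Ndufb3 (0.911). Cd36 was most like Olfr1336 (0.926), Fitm1 like Slc22a20 (0.889), Hilpda like Hsd3b7 (0.878), Plin4 like Adam8 (0.87) and G0s2 like Gm27162 (0.82). Within the 11 CDAHFD libraries r was 0.924 between Pparg and Cd36 and 0.876 between Pparg and Cidec. Between Mogat1 and Cidec it was -0.919 there, and -0.142 within the 11 FPC libraries.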

How the data were processed

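ATAC-seq marks open chromatin by the sites a transposase can cut. Per the labels' protocols, bead-bound nuclei of each sample were transposed, amplified by 12 PCR cycles and sequenced in pairs. The submitters' processing notes name BWA 0.7.5a-r405, SAMtools, HOMER, DESeq2 and the mm10 build. The authors deposited estimated counts per peak, merged over samples and not normalized, in steps of 0.5, as the values show. Of all values 47.8% ended in 0.5, and all were rounded to whole numbers. All peaks of the 10 genes were 200 bp wide. The authors' normalized table was not used.

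Each peak belongs to the gene the authors' annotation names. Counts were summed per gene over peaks within 50 kb of its start (82.49% of peaks). edgeR 4.0.16 (R 4.3.3, TMM scaling, default low-count filter, which kept all genes and peaks) fitted 6 groups over all 22 libraries without covariates. P-values were adjusted by Benjamini and Hochberg over all genes or peaks. CPM used TMM-scaled totals, and SE was the log2 fold change over the square root of F. The fits were tried on simulated data with known changes in a small part of the features. That does not check them where, as here, many features change. The smallest library held 3785066 counts, and intervals reflect spread between mice. The members and lists were chosen with earlier results of these data known. Named were all 10 genes, their peaks nearest the start, strongest or with the smallest p, and up to 4 list genes per comparison and direction. Peaks named beyond that rule, such as those at -98 and -236 bp of Pparg, -1038 bp of Plin2 and behind G0s2, were chosen after their values were seen. Alternatives were RLE and cyclic loess scaling, DESeq2 1.42.0, other filters, rounding down, libraries of 1 diet, thinning, other distances, leaving out each library and, chosen after seeing the data, library totals of all peaks. The edgeR adjusted p of each value stands in brackets after it. Promoters came from RefSeq (GRCm38.p6). Some genes the rule names are not reported here.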

Additional observations from a re-analysis of the deposited data

Results flagged for a closer look

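Of the groups of 4 libraries, 132 were looked at for a library far from the others, by comparing the gap to the nearest library with the whole range of the group; chance alone marks about 1 in 20. There were 8. Among gene sums, 1 library stood apart for Cidec in mild CDAHFD livers (gap over range 0.861, at 158 CPM, above the other 3), for G0s2 in mild CDAHFD livers (0.853, at 80.9 CPM, below) and for Mogat1 in mild FPC livers (0.832, at 127 CPM, below). Among peaks, 1 library stood apart at the downstream Cidec start, 890 bp, in FPC controls (0.877, high), at the Fitm1 peak -3717 bp in mild FPC livers (0.95, low) and at the G0s2 peak -263 bp in mild FPC livers (0.872, low). The others were the Plin2 peak -16700 bp in FPC controls (0.931, high) and the Pparg peak 65 bp in mild CDAHFD livers (0.939, low).

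Cidec, advanced against mild, and Hilpda, mild against control, moved in opposite directions on the 2 diets in every library. For Cidec, advanced against mild, each advanced FPC library was below the mild mean and each advanced CDAHFD library above it, a difference of the mean log2 changes of -0.297, FPC minus CDAHFD. For Hilpda, mild against control, every mild FPC library was above and every mild CDAHFD library below the mean of its controls, a difference of 0.303. Neither difference between the diets was tested, since the genes were chosen on FPC values. By edgeR the CDAHFD changes of the 50 kb sums were not called, at 0.099 for Cidec (adjusted p = 0.34) and -0.12 for Hilpda (0.123). With peaks limited to 1 kb both were called, at 0.53 for Cidec (0.000757) and -0.24 for Hilpda (0.0118). In advanced against control livers Cidec was higher on both diets (0.093 in FPC and 0.27 in CDAHFD livers). Hilpda was lower on both there (-0.24 and -0.17).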

How the results depend on the processing

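Of 4630 values of single genes and peaks under alternatives, 4425 counted as the same. Tested values among them kept their side of the threshold, and those not called could change sign. Untested FPC values among them shifted by less than the spread between libraries, whatever their sign. Of the others, 146 were no longer called, 19 became called and 37 untested ones moved beyond that spread. Some of the moved ones changed sign, such as Pparg in advanced against control FPC livers (0.151, and -0.192 at 10 kb). Called values reversed in 3 cases. These were Fitm1 (-0.396) and Hsd17b13 (-0.000636), advanced against control CDAHFD at 1 kb, and the Cidec peak at -215 bp. The last was in mild against control CDAHFD under cyclic loess (-0.0136). Scaling by totals of all peaks, chosen after seeing the data, put the median of all genes in advanced against control FPC livers at 0.105, against 0.0278.

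Counts of the 10 genes moved as follows. In advanced against control CDAHFD livers, genes called lower were 1 under cyclic loess or totals of all peaks. In mild against control they were 3 at 10 kb and 3 at 1 kb, and genes called higher were 3 at 10 kb. In advanced against mild they were 1 lower at 10 kb, and 1 higher and 2 lower at 1 kb. Peaks called lower in mild against control were 5 after thinning. In advanced against mild, peaks called lower were 3 under RLE, cyclic loess, rounding down, libraries of 1 diet or thinning, and 1 peak was higher under cyclic loess. The median FPC log2 difference, advanced against control, was -0.102 at 1 kb. The causes were not tested.
Leaving out 1 library at a time gave, in advanced against control CDAHFD, 1 to 3 genes lower, in mild against control 3 to 5 genes higher, and in advanced against mild 3 to 5 peaks higher, 2 to 5 peaks lower and 3 to 10 pathway genes called; the FPC median, advanced against control, ran from -0.0546 to 0.112.
No paired analysis was possible because no mouse gave libraries to 2 groups, and the replicate numbers only name libraries. Leaving out 1 library of 3 leaves 2 per group, and peaks under about 1 CPM rest on few counts.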
